A study of Homo sapiens with 16 samples.

Results

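The enzymes of sterol and fatty acid synthesis, with their main regulators, were followed as a set of 30 genes in 16HBE cells, an immortalised line of human bronchial epithelium. The set holds every gene of a list set by name, and a gene was taken as all array probes that carry its symbol. The list was chosen with earlier results of these data known. All 30 were on the arrays, with 43 probes among the 58201 measured, and all 30 could be tested, among 26368 of 42665 gene names. Expression was read on 16 one-colour Agilent arrays, 4 in each of 4 groups. The 16HBE-WT cells carry unedited MET, and the 16HBE-ex14 cells are 1 edited clone, clone F, in which exon 14 of MET is skipped. The labels of all 16 samples give 2 h of serum starvation. Each genotype was measured without HGF, the ligand of MET, and with 20 ng/mL of HGF over 24 h. The stimulated groups are written 16HBE-WT+HGF and 16HBE-ex14+HGF. As 16HBE-ex14 is a single clone, the edit and the clone cannot be told apart in any comparison of the genotypes.

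Cells build cholesterol from acetyl-CoA, first through the mevalonate pathway to farnesyl diphosphate, then through squalene and lanosterol. Many genes of this route, and of fatty acid synthesis, are known targets of the sterol regulatory element binding proteins, transcription factors that are held in the endoplasmic reticulum while sterols are plentiful and released to the nucleus when they are scarce. The proteins encoded by INSIG1 and its relative INSIG2 hold them back, and INSIG1 is itself one of their targets.

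The route to cholesterol was lower in 16HBE-ex14 cells at most of its steps. Without HGF, 13 of the 30 genes (43.3%) were lower in 16HBE-ex14 than in 16HBE-WT past both limits used here, an adjusted p below 0.05 from limma with Benjamini-Hochberg adjustment and a fold change above 1.5, against 4.75% of all genes tested. With HGF, 14 of the 30 (46.7%) were lower, against 5.36%, and 12 were lower in both comparisons, against 3.17%. None of the 30 was higher past the limits, against 4.51% of all genes without HGF and 5.3% with HGF. As the list was chosen with earlier results of these data known, these shares describe the set and are no independent test of it. At an unadjusted p below 0.05, 20 members differed without HGF, none of them higher, where 30% of all genes differed in either direction. With HGF 22 did, of which AACS alone was higher, where 31.6% of all genes did. INSIG1 had the largest difference of the 30 in both comparisons, at 3.17-fold and 3.37-fold. The median log2 difference between the genotypes over the 30 genes was -0.56 without HGF and -0.56 with HGF, beside -0.01 and 0.00 over all genes tested. The groups of 4 arrays did not overlap, with 16HBE-ex14 below 16HBE-WT, for 16 of the 30 without HGF and for 22 with HGF, where 9.79% and 11.6% of all genes did so. They lay apart the other way, with 16HBE-ex14 above, for PMVK without HGF and for AACS with HGF.

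The mean log2 level of the 30 genes, relative to the 75th percentile of the intensities of its own array, gives each array a single value. It was 3.70, 3.49, 3.76 and 3.80 on the 16HBE-WT arrays and 2.95, 3.37, 3.11 and 3.19 on the 16HBE-ex14 arrays. With HGF it was 3.51, 3.50, 3.42 and 3.64 in 16HBE-WT and 3.01, 2.87, 3.02 and 2.91 in 16HBE-ex14. Every 16HBE-ex14 array lay below every 16HBE-WT array, and replicate 2 of 16HBE-ex14 came nearest to them. The group means were 3.69 ± 0.13 (SD, n = 4) in 16HBE-WT and 3.15 ± 0.18 in 16HBE-ex14, and with HGF 3.52 ± 0.09 and 2.95 ± 0.08. The genotypes differed in this mean by -0.44 on the first slide and -0.63 on the second without HGF, and by -0.57 on each with HGF. The mean is a description of the set and was given no test.

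**Figure D1:**
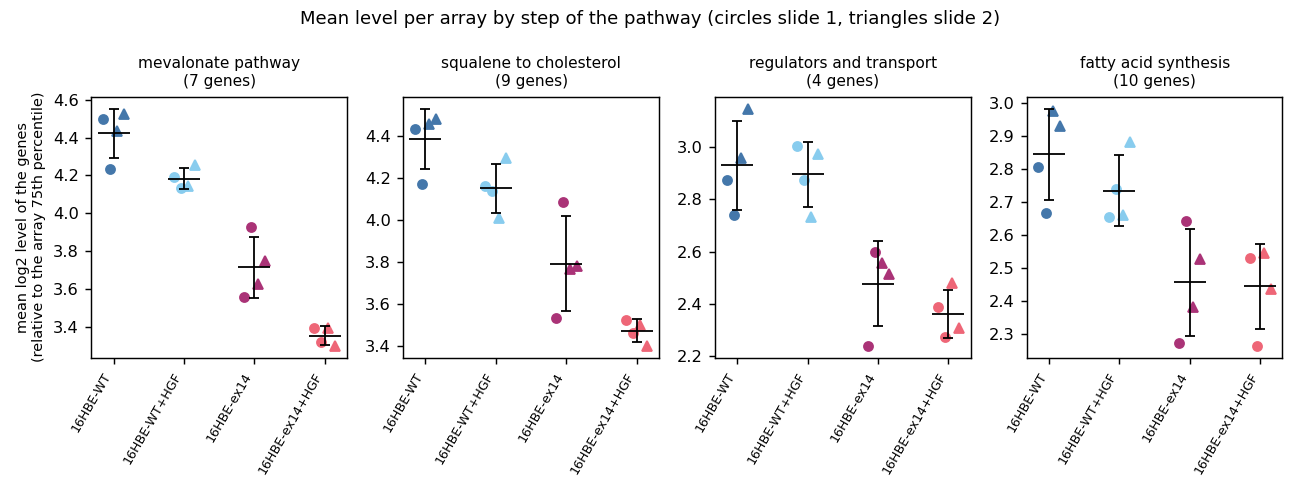
Mean log2 level per array, relative to the 75th percentile of that array, of the genes of 4 steps of the pathway in the 4 groups. Circles are arrays of the first slide and triangles those of the second, and the lines give the mean and SD of 4 arrays. In all 4 panels every array of 16HBE-ex14 lies below every array of 16HBE-WT, both without and with HGF. In the panel of regulators and transport, INSIG1 had log2 differences of -1.66 and -1.75. There SREBF1, SREBF2 and STARD4 had differences from -0.32 to 0.12 and were not called, so that panel mostly shows INSIG1.

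Reference promoters, from 250 bases before to 50 after each gene start in RefSeq on GRCh38.p14, were listed for 26 of the 30 genes, and 4 are printed for the reasons that follow. INSIG1 had the largest difference, HMGCS1 makes HMG-CoA, the precursor of mevalonate, and was lower in both comparisons, MVK had 5 NF-Y boxes, as many as any member, and SREBF2 was the single member with a sterol regulatory element of the letters searched. Capitals mark the NF-Y box, CCAAT or its reverse complement, and in SREBF2 also the sterol regulatory element, TCACNCCAC. HMGCS1 has another listed promoter, at chr5:43313132-43313431, which held 0 NF-Y boxes and is not printed.
INSIG1, chr7:155297628-155297927, plus strand: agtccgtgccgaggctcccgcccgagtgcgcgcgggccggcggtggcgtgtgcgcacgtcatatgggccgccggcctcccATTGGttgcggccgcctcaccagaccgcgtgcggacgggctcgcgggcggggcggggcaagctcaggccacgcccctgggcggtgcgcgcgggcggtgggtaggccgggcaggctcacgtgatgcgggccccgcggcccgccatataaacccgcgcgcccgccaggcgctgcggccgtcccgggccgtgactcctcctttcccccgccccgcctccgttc
HMGCS1, chr5:43313363-43313662, minus strand: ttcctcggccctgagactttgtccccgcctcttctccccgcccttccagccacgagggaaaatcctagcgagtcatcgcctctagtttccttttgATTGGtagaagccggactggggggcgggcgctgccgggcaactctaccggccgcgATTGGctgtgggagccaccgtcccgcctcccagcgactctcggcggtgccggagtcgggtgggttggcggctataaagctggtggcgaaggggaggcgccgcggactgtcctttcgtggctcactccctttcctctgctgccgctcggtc
MVK, chr12:109573544-109573843, plus strand: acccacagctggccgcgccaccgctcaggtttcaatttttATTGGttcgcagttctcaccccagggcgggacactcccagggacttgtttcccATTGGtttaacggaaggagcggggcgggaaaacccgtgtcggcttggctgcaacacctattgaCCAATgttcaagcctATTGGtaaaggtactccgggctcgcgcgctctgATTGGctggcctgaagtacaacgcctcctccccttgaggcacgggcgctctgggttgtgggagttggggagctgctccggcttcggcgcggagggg
SREBF2, chr22:41832855-41833154, plus strand: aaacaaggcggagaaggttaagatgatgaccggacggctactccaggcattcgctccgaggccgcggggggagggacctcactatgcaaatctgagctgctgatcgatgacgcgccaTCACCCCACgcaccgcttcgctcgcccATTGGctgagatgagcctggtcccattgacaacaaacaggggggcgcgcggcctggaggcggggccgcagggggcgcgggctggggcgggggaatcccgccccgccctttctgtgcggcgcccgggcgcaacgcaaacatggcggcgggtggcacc
The CCAAT letters stood, on either strand, in a promoter of 19 of the 26 members (73.1%) and of 39.7% of the 27305 genes in the table. A gene counts here if any of its listed promoters holds the letters. Counted by promoter, CCAAT stood in 22 of 37 of the members (59.5%) and in 34.6% of all 35116. Among members lower in 16HBE-ex14 in at least 1 comparison, 12 of the 13 with a listed promoter held CCAAT, and among the other members 7 of 13 did. GGGCGG, the letters of the SP1 box, were found in 25 of the 26 (96.2%) and in 48.3% of all genes, and CACGTG, the E-box, in 2 (7.69%), INSIG1 and LSS, and in 8.77%. TCACNCCAC was found in 1 of the 26 (3.85%) and in 1.39% of all genes, at position -133 from the SREBF2 start. These are counts of letters in a fixed window, and none was tested.

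The arrays lay on 2 slides, each with 2 rows that held 1 array of every group, and replicates 1 and 2 here are the rows of the first slide and 3 and 4 those of the second. The study grew its 4 replicates a week apart, and the files used here do not tie an array to a week. The 75th percentile of intensity ran from 156.3 to 213 units on unstimulated 16HBE-WT arrays and from 211.1 to 240.5 on unstimulated 16HBE-ex14 arrays, and with HGF from 139.5 to 191 and from 201.8 to 262.8, so it was higher on most 16HBE-ex14 arrays. With scaling to 8 E1A spike-in probes in its place, 12 of the 30 genes were lower in 16HBE-ex14 without HGF and 12 with HGF. The brightest probe of each of the 30 genes, which stands for the gene below, was well above background on all 16 arrays and saturated on none. The MET probe, at chr7:116438290-116438349 on hg19, gave log2 means of 4.97 in 16HBE-WT and 5.10 in 16HBE-ex14, and with HGF 5.00 and 5.16, with no call. Which exon it reads was not analysed here, and it is not taken as a check of the edit. All 5 epithelial markers (EPCAM, CDH1, KRT8, KRT18 and KRT19) were well above background on the 16 arrays, with a summed level between 1520 and 2030 times the 75th percentile. KRT19 was lower in 16HBE-ex14 without HGF (log2 difference -0.58 ± 0.09, adjusted p = 0.000426) and with HGF (-0.39 ± 0.09, adjusted p = 0.00562), and CDH1 was lower with HGF in 16HBE-ex14 (-0.58 ± 0.14, adjusted p = 0.0347), all under the fold limit. The summed level of 5 fibroblast markers was 0.535 to 1.02 times that percentile in 16HBE-WT against 0.313 to 0.497 in 16HBE-ex14, and with HGF 0.551 to 0.789 against 0.39 to 0.415. Of these, COL1A1 and PDGFRB were well above background on all 16 arrays, those of 16HBE-ex14 included, and were called in no comparison. LUM was well above background on all 4 arrays of both 16HBE-WT groups and on none of 16HBE-ex14, while COL1A2 and DCN were below it on every array. Of 4 immune markers, whose summed levels ran from 0.651 to 1.29 and overlapped in all groups, CD3E was lower in 16HBE-ex14 without HGF (log2 difference -0.98 ± 0.28, adjusted p = 0.0242). With HGF it was not called (-0.53 ± 0.28, adjusted p = 0.219). PTPRC and CD14, like CD3E well above background on all 16 arrays, were called in no comparison. Of 3 endothelial markers and 4 of adipocytes and hepatocytes, none was called in any comparison. The part of these markers and of the percentile in the differences of the 30 genes was not tested, and fewer cells of a type cannot be told apart from less RNA per cell.

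In the mevalonate pathway, 5 of 7 genes were lower in 16HBE-ex14 without HGF and 6 with HGF, against 4.75% and 5.36% of all genes. The median log2 differences were -0.77 and -0.88. ACAT2, which joins acetyl-CoA units into acetoacetyl-CoA, was read by a probe at chr6:160199814-160199873 (hg19, as are the probe positions that follow). Its log2 levels were 7.55, 7.30, 7.46 and 7.60 in 16HBE-WT and 6.11, 6.48, 6.37 and 6.51 in 16HBE-ex14. They were 7.17, 7.18, 7.10 and 7.44 in 16HBE-WT+HGF and 5.90, 5.88, 6.11 and 5.87 in 16HBE-ex14+HGF. The 8 arrays of 16HBE-ex14 thus stood clear of the 8 of 16HBE-WT. The log2 difference was -1.11 ± 0.11 (SE, adjusted p = 1.44e-05) without HGF, or 2.16-fold lower, and -1.28 ± 0.11 (adjusted p = 3.53e-06) with HGF, or 2.44-fold lower.

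HMGCS1, the cytosolic HMG-CoA synthase whose promoter is printed above, has its probe at chr5:43290117-43290176. Without HGF it gave 2.18, 1.61, 2.21 and 2.24 in 16HBE-WT and 0.49, 1.26, 0.75 and 1.05 in 16HBE-ex14. With HGF it gave 1.71, 1.52, 1.49 and 1.64 in 16HBE-WT and 0.40, 0.15, 0.44 and 0.09 in 16HBE-ex14. Without HGF the lowest 16HBE-WT array, replicate 2, was still above the highest of 16HBE-ex14, also a replicate 2, and with HGF the groups lay far apart. HMGCS1 was 2.26-fold lower in 16HBE-ex14 without HGF (log2 -1.17 ± 0.17, adjusted p = 0.000293) and 2.49-fold lower with HGF (log2 -1.32 ± 0.17, adjusted p = 9.72e-05).

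MVK, the kinase that adds the first phosphate to mevalonate, was read at chr12:110034941-110035000. The 16HBE-WT arrays gave 5.86, 5.66, 5.73 and 5.98 and the 16HBE-ex14 arrays 4.85, 5.36, 4.84 and 5.12. The stimulated arrays gave 5.60, 5.52, 5.66 and 5.62 in 16HBE-WT and 4.72, 4.52, 4.57 and 4.49 in 16HBE-ex14. Neither pair of groups overlapped, and replicate 2 of 16HBE-ex14 was the highest of its group. The difference was -0.77 ± 0.12 (adjusted p = 0.00042) without HGF and -1.02 ± 0.12 (adjusted p = 3.45e-05) with HGF. PMVK, the kinase of the next step, did not pass the test in either comparison, at 0.15 ± 0.09 (adjusted p = 0.268) and 0.03 ± 0.09 (adjusted p = 0.854). Without HGF its groups did not overlap, with 16HBE-ex14 above (lowest array 3.08) and 16HBE-WT below (highest array 3.03).

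MVD, the decarboxylase that yields isopentenyl diphosphate, was read by a probe whose ends lie at chr16:88718985-88719738. It gave 2.99, 2.59, 2.86 and 2.90 in 16HBE-WT and 1.96, 2.65, 2.08 and 2.21 in 16HBE-ex14. The groups overlapped there, since replicate 2 of 16HBE-ex14 exceeded replicate 2 of 16HBE-WT. With HGF the values were 2.53, 2.37, 2.20 and 2.49 and 1.86, 1.70, 1.66 and 1.51, with no overlap. The difference without HGF, -0.61 ± 0.14 (adjusted p = 0.00818), did not keep its call with normexp background correction (-0.52), with scaling to the array median (-0.47) or to the spike-ins (-0.50), nor without replicate 1 of 16HBE-WT or replicate 1 or 3 of 16HBE-ex14 (-0.56, -0.52 and -0.56). With HGF it was -0.71 ± 0.14 (adjusted p = 0.00256).

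IDI1 turns isopentenyl diphosphate into its isomer, and its probe lies at chr10:1086619-1086678. Its levels were 3.33, 3.11, 2.91 and 3.28 in 16HBE-WT against 2.52, 2.38, 2.11 and 2.08 in 16HBE-ex14. They were 2.97, 2.87, 3.43 and 2.76 in 16HBE-WT+HGF against 2.01, 1.94, 2.14 and 2.40 in 16HBE-ex14+HGF. No 16HBE-ex14 array reached a 16HBE-WT array. IDI1 was 1.85-fold lower without HGF (log2 -0.88 ± 0.16, adjusted p = 0.00138) and 1.85-fold lower with HGF (log2 -0.88 ± 0.16, adjusted p = 0.00119).

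FDPS, which makes farnesyl diphosphate and has its probe at chr1:155290269-155290328, lay at the fold change limit. Its values were 6.64, 6.39, 6.84 and 6.70 in 16HBE-WT and 5.88, 6.23, 6.00 and 6.16 in 16HBE-ex14. They were 6.36, 6.52, 6.28 and 6.80 in 16HBE-WT+HGF and 5.85, 5.82, 5.95 and 5.84 in 16HBE-ex14+HGF. The groups did not overlap in either pair, though the nearest arrays came close. Without HGF the difference of -0.58 ± 0.13 was 1.49-fold (adjusted p = 0.00517) and missed the fold limit. With HGF the difference of -0.62 ± 0.13 was 1.54-fold (adjusted p = 0.00272) and passed it, but not with normexp (-0.53), with scaling to the median (-0.53) or to the spike-ins (-0.57), or without replicate 4 of 16HBE-WT+HGF (-0.52).

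From squalene to cholesterol, the log2 difference was below 0 for all 9 genes in both comparisons, where it was so for 51.6% and 49.8% of all genes. Without HGF 4 of 9 were called lower and with HGF 5, against 4.75% and 5.36% of all genes. FDFT1, the squalene synthase, was not among them, with -0.38 ± 0.14 (adjusted p = 0.071) and -0.29 ± 0.14 (adjusted p = 0.166). SQLE, the squalene epoxidase and a rate-limiting enzyme of the route, gave 4.76, 4.57, 4.69 and 4.71 in 16HBE-WT and 3.52, 4.22, 3.55 and 3.57 in 16HBE-ex14. With HGF it gave 4.56, 4.46, 4.18 and 4.54 in 16HBE-WT and 3.49, 3.27, 3.18 and 3.18 in 16HBE-ex14. Replicate 2 of 16HBE-ex14 stood well above the other arrays of its group but below every unstimulated 16HBE-WT array. SQLE was 1.95-fold lower without HGF (log2 -0.96 ± 0.15, adjusted p = 0.000453) and 2.22-fold lower with HGF (log2 -1.15 ± 0.15, adjusted p = 8.65e-05).

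LSS closes the squalene epoxide into lanosterol, the first sterol of the route, and its brighter probe lies at chr21:47609299-47609358. It read 3.56, 3.15, 3.56 and 3.61 in 16HBE-WT and 2.29, 2.87, 2.55 and 2.55 in 16HBE-ex14. After HGF it read 3.15, 3.18, 2.92 and 3.41 in 16HBE-WT and 2.25, 2.19, 2.27 and 2.01 in 16HBE-ex14. There was no overlap between the genotypes, the closest arrays being the replicates 2 without HGF. The difference was -0.90 ± 0.14 (adjusted p = 0.000532) and -0.98 ± 0.14 (adjusted p = 0.000228), and the second LSS probe was lower too, by log2 differences of -1.17 ± 0.26 and -1.67 ± 0.26. CYP51A1, the lanosterol demethylase, had adjusted p-values of 0.00908 and 0.0016 with differences of -0.45 and -0.57, both under the fold limit. TM7SF2, a sterol reductase, and NSDHL, a dehydrogenase of sterol demethylation, did not pass the test, with differences of -0.21 ± 0.16 and -0.42 ± 0.16 for TM7SF2 and -0.19 ± 0.10 and -0.14 ± 0.10 for NSDHL.

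HSD17B7, a reductase of keto-sterols, had 5 probes, the brightest with its ends at chr1:162773299-162774089. This probe gave 1.77, 1.32, 1.66 and 1.72 in 16HBE-WT and 0.45, 1.01, 0.74 and 0.82 in 16HBE-ex14. It gave 1.13, 1.20, 1.21 and 1.498 in 16HBE-WT+HGF and 0.51, 0.26, 0.57 and 0.38 in 16HBE-ex14+HGF. All arrays of 16HBE-ex14 were below those of 16HBE-WT in both pairs. The difference was -0.86 ± 0.14 (adjusted p = 0.00056) without HGF and -0.83 ± 0.14 (adjusted p = 0.000608) with HGF. The other two probes that were above background on all 16 arrays were lower as well (-0.86 and -0.87 without HGF, -0.91 and -0.84 with HGF), and the dimmer ones, above background on 11 arrays each, were not called.

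EBP, the sterol isomerase, had the smallest standard error of the 30 genes, and its probe lies at chrX:48386942-48387001. The 16HBE-WT arrays gave 6.13, 6.03, 5.98 and 6.02, and the 16HBE-ex14 arrays gave 5.35, 5.63, 5.43 and 5.43. With HGF the values were 5.92, 5.91, 5.86 and 5.87 in 16HBE-WT and 5.21, 5.37, 5.26 and 5.24 in 16HBE-ex14. The genotypes were well separated in both pairs. Yet the difference of -0.58 ± 0.08 (adjusted p = 0.00016) missed the fold limit without HGF, while -0.62 ± 0.08 (adjusted p = 7.93e-05) passed it with HGF, and with normexp (-0.53), scaling to the median (-0.52) or to the spike-ins (-0.56) it missed it there as well.

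DHCR7, the reductase whose product is cholesterol, was read at chr11:71145514-71145573. Without HGF the arrays gave 6.86, 6.64, 7.05 and 6.93 in 16HBE-WT and 5.70, 6.52, 5.99 and 5.98 in 16HBE-ex14. With HGF they gave 6.73, 6.63, 6.39 and 6.83 in 16HBE-WT and 5.73, 5.57, 5.43 and 5.42 in 16HBE-ex14. Replicate 2 of 16HBE-ex14 fell just short of replicate 2 of 16HBE-WT, and the other arrays were far apart. DHCR7 was 1.77-fold lower without HGF (log2 -0.82 ± 0.16, adjusted p = 0.00222) and 2.15-fold lower with HGF (log2 -1.11 ± 0.16, adjusted p = 0.000207).

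Among the regulators, INSIG1 was called in both comparisons and the genes of the transcription factors themselves in neither. The INSIG1 probe at chr7:155101843-155101902 gave 3.22, 3.12, 3.21 and 3.61 in 16HBE-WT and 1.37, 2.00, 1.62 and 1.52 in 16HBE-ex14. With HGF it gave 3.52, 3.16, 3.24 and 3.32 in 16HBE-WT and 1.57, 1.57, 1.63 and 1.49 in 16HBE-ex14. More than a log2 unit lay between the closest arrays of the genotypes in each pair. The difference was -1.66 ± 0.14 (adjusted p = 2.62e-06) without HGF and -1.75 ± 0.14 (adjusted p = 1.34e-06) with HGF. SREBF1, which encodes one of the binding proteins, had differences of 0.12 ± 0.12 and 0.11 ± 0.12 (adjusted p = 0.56 and 0.591), and its second probe was not called either. SREBF2, which encodes the protein best known for control of sterol synthesis, had -0.09 ± 0.11 (adjusted p = 0.635) without HGF. With HGF its difference was -0.32 ± 0.11 (adjusted p = 0.0562), with no overlap between the groups and no call. STARD4, a carrier of cholesterol between membranes, had -0.17 ± 0.14 and -0.17 ± 0.14, with adjusted p-values of 0.464 and 0.469.

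Fatty acid synthesis was mixed. Of the 10 genes grouped here, 3 were lower in 16HBE-ex14 without HGF and 2 with HGF, against 4.75% and 5.36% of all genes. The medians of the 10 were -0.41 and -0.45. LPIN1, of glycerolipid synthesis, is counted among the 10 and was called lower in both comparisons on its brightest probe. ACLY, which makes acetyl-CoA from citrate, stayed under the fold limit at -0.54 ± 0.12 (adjusted p = 0.00432) and -0.51 ± 0.12 (adjusted p = 0.00535). ACACA, whose enzyme makes malonyl-CoA, did not pass the test on either of its probes, with 0.11 ± 0.15 and -0.13 ± 0.15 on the brighter one. FASN, the fatty acid synthase, had -0.48 ± 0.13 (adjusted p = 0.017) and -0.55 ± 0.13 (adjusted p = 0.00685), again under the fold limit. ELOVL6, an elongase, and FADS1, a desaturase of polyunsaturated chains, did not pass the test, with differences from 0.09 to 0.34 and from 0.11 to 0.16. FADS2, the desaturase that acts before FADS1, passed the test with HGF at -0.43 ± 0.12 (adjusted p = 0.0209) but not the fold limit, and its second probe gave -0.02 ± 0.17.

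ACSS2, which makes acetyl-CoA from acetate, has its probe at chr20:33515343-33515401. It gave 3.09, 2.85, 3.01 and 3.20 in 16HBE-WT and 1.74, 2.11, 2.33 and 2.12 in 16HBE-ex14. With HGF it gave 2.81, 2.87, 3.03 and 3.11 in 16HBE-WT and 2.50, 2.30, 2.74 and 2.37 in 16HBE-ex14. The gap between the genotypes was wide without HGF and narrow with it, and neither pair overlapped. The difference was -0.96 ± 0.13 (adjusted p = 0.000206), or 1.95-fold lower, without HGF, and -0.48 ± 0.13 (adjusted p = 0.0202), under the fold limit, with HGF.

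SCD, the desaturase that sets the first double bond into saturated chains, had the largest standard error of the 30 genes, and its probe lies at chr10:102123917-102123976. Its values were 1.64, 0.83, 1.51 and 1.48 in 16HBE-WT and 0.01, 0.70, -0.31 and 0.45 in 16HBE-ex14. They were 0.90, 1.10, 0.82 and 1.24 in 16HBE-WT+HGF and 0.21, -0.70, 0.13 and -0.20 in 16HBE-ex14+HGF. The replicates 2 came closest without HGF, and the groups did not overlap. SCD was 2.22-fold lower without HGF (log2 -1.15 ± 0.25, adjusted p = 0.00449) and 2.22-fold lower with HGF (log2 -1.15 ± 0.25, adjusted p = 0.00384).

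LPIN1, a phosphatidate phosphatase of glycerolipid synthesis, had 3 probes, the brightest at chr2:11967107-11967166. That probe gave 2.96, 3.12, 3.28 and 3.32 in 16HBE-WT and 2.07, 2.60, 2.18 and 2.31 in 16HBE-ex14. It gave 3.28, 3.03, 3.04 and 3.27 in 16HBE-WT+HGF and 2.64, 2.11, 2.48 and 2.50 in 16HBE-ex14+HGF. The genotypes did not overlap in either pair. The difference was -0.88 ± 0.14 (adjusted p = 0.000564) without HGF and -0.72 ± 0.14 (adjusted p = 0.002) with HGF. The second probe, above background on all 16 arrays, gave -0.57 ± 0.19 without HGF (adjusted p = 0.0476, under the fold limit) and -0.37 ± 0.19 with HGF (adjusted p = 0.197). The third, above background on 7 arrays, was called lower without HGF (-1.43 ± 0.31, adjusted p = 0.00545) and not with HGF (-0.49 ± 0.31, adjusted p = 0.322). LPIN1 lost its calls when a gene was taken as the median of its probes.

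With HGF, most of the genes had log2 differences below 0 in both genotypes, of sizes that did not pass both limits. In 16HBE-ex14 none of the 30 genes was called with HGF, against 2.11% of all genes in either direction, and in 16HBE-WT none was called, against 0%. At an unadjusted p below 0.05 from limma, 13 of the 30 were lower with HGF in 16HBE-ex14, where 6.35% of all genes were, and ACSS2 and AACS were higher. In 16HBE-WT 4 were lower at that p, where 1.66% of all genes were. The log2 difference was below 0 for 24 of the 30 in 16HBE-ex14 and for 27 in 16HBE-WT, where it was so for 39.6% and 39% of all genes. The median was -0.18 in 16HBE-ex14 and -0.15 in 16HBE-WT, beside 0.06 and 0.04 over all genes. Groups of 4 arrays lay apart, lower with HGF, for 8 of the 30 in 16HBE-ex14 and 4 in 16HBE-WT, against 4.46% and 0.91% of all genes.

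**Figure D2:**
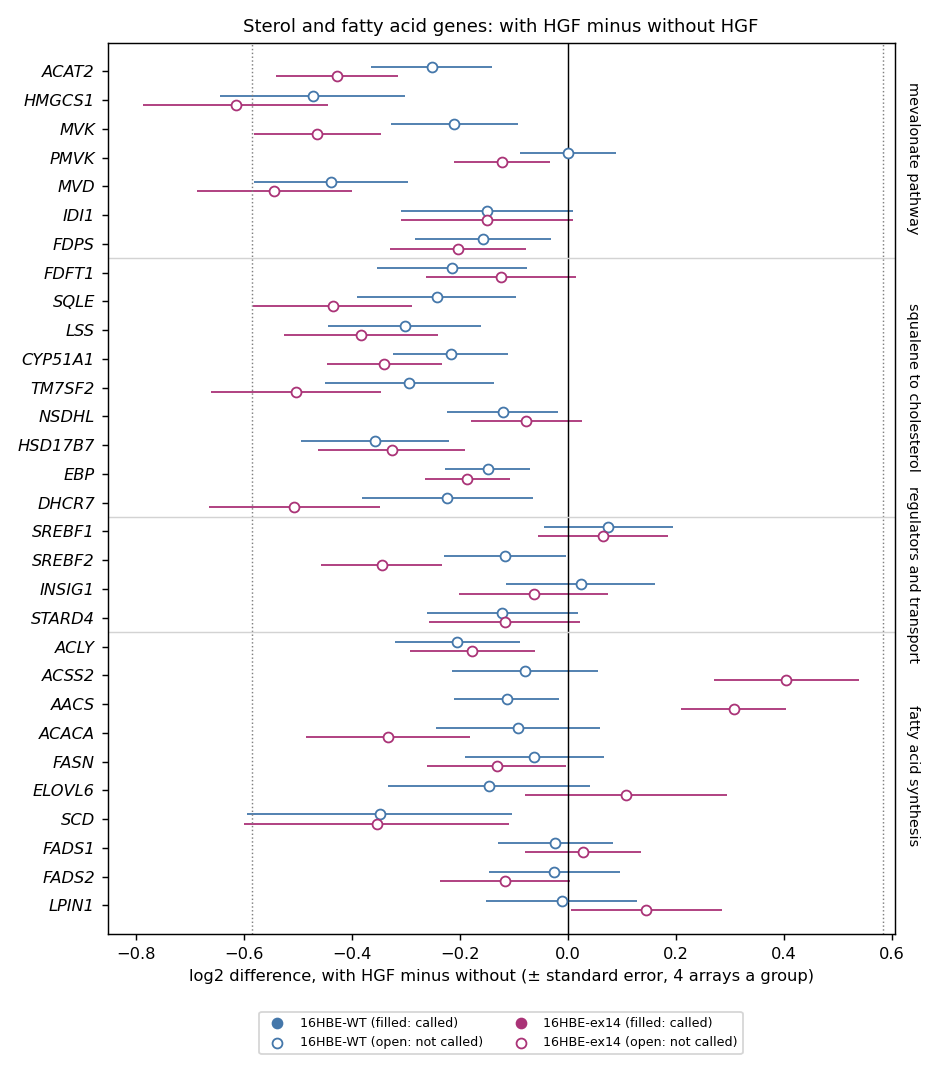
Log2 difference between cells with and without HGF for each of the 30 genes (points, with bars of 1 standard error, 4 arrays a group), blue in 16HBE-WT and purple in 16HBE-ex14. Dotted lines mark a fold change of 1.5, and open points are genes that did not pass both limits, as was the case for all 30.

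HMGCS1 had the largest HGF difference of the 30 in both genotypes, -0.62 ± 0.17 (adjusted p = 0.0749) in 16HBE-ex14 and -0.47 ± 0.17 (adjusted p = 0.92) in 16HBE-WT. In the values given above, every stimulated 16HBE-ex14 array was below every unstimulated one, and the 16HBE-WT groups overlapped through the low replicate 2. HMGCS1 passed both limits in 16HBE-ex14 when probes had to be above background on all 16 arrays (adjusted p = 0.0425), without replicate 2 of 16HBE-WT (0.0402) and without replicate 1 of 16HBE-ex14 (log2 -0.75, 0.0359). MVD came next, with -0.54 ± 0.14 (adjusted p = 0.0587) and -0.44 ± 0.14 (adjusted p = 0.871), and it too passed both limits without replicate 1 of 16HBE-ex14 (-0.63). MVK was the single member with an adjusted p below 0.05, at -0.46 ± 0.12 (adjusted p = 0.0482) in 16HBE-ex14, under the fold limit. DHCR7 followed in 16HBE-ex14 with -0.51 ± 0.16 (adjusted p = 0.119), and HSD17B7 in 16HBE-WT with -0.36 ± 0.14 (adjusted p = 0.95). By role, the HGF medians in 16HBE-ex14 were -0.43 in the mevalonate pathway, -0.34 from squalene to cholesterol, -0.09 among regulators and transport, and -0.04 in fatty acid synthesis. The same medians in 16HBE-WT were -0.21, -0.22, -0.05 and -0.09.

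INSIG1, with the largest difference between the genotypes, had HGF differences of 0.02 ± 0.14 in 16HBE-WT and -0.06 ± 0.14 in 16HBE-ex14. The difference of the HGF responses between the genotypes was not called for any of the 30 genes, and for 0% of all genes. At an unadjusted p below 0.05 it was met by 2 of the 30, ACSS2 and AACS, where 4.6% of all genes met it. ACSS2 gave 0.40 ± 0.13 with HGF in 16HBE-ex14 and -0.08 ± 0.13 in 16HBE-WT, and the test of the difference gave an adjusted p of 0.98. AACS, which makes acetoacetyl-CoA from acetoacetate, was read at chr12:125627381-125627440. Its levels were 1.69, 1.77, 1.85 and 1.82 in 16HBE-WT and 1.67, 1.91, 2.15 and 1.96 in 16HBE-ex14. With HGF they were 1.62, 1.63, 1.68 and 1.73 in 16HBE-WT and 2.14, 2.17, 2.35 and 2.24 in 16HBE-ex14. The stimulated 16HBE-ex14 arrays were above all 16HBE-WT arrays, with and without HGF, while the unstimulated ones overlapped with them. AACS differed with HGF by 0.31 ± 0.10 in 16HBE-ex14 and -0.11 ± 0.10 in 16HBE-WT (adjusted p of the difference 0.832). Between the stimulated genotypes AACS differed by 0.56 ± 0.10 (adjusted p = 0.00091), a 1.48-fold difference that missed the fold limit. It passed as higher when scaled by the array median (0.66) or by the spike-ins (0.62) and without replicate 1 of 16HBE-ex14+HGF (0.59), and its second probe gave 0.44 ± 0.21 (adjusted p = 0.179).

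A further 34 genes of the same pathways, listed for this purpose with earlier results of these data known, were all tested. Without HGF, 8 of the 34 were lower and 2 higher in 16HBE-ex14, where 4.75% and 4.51% of all genes were. With HGF 7 were lower and 2 higher, where 5.36% and 5.3% of all genes were, and the medians were -0.15 and -0.13. MSMO1, an oxidase of sterol demethylation, was among those lower, with -1.14 ± 0.11 and -1.02 ± 0.11. SC5D, the sterol desaturase, was lower by differences of -0.74 ± 0.21 and -0.90 ± 0.21. In fatty acid synthesis, ME1, a source of NADPH, was lower by -1.23 ± 0.12 in both, and SCD5, a relative of SCD, by -1.54 ± 0.18 and -1.57 ± 0.18. FADS3, a relative of FADS2, gave -0.71 ± 0.16 and -0.98 ± 0.16, and MYLIP, a ligase that marks lipoprotein receptors for degradation, gave -0.81 ± 0.12 and -0.63 ± 0.12. ABCG1, a sterol exporter, was lower without HGF (-1.30 ± 0.43, adjusted p = 0.0475) but was above background on 2 of 4 16HBE-WT arrays and 1 of 4 16HBE-ex14 arrays. Higher in 16HBE-ex14 were NR1H3, a nuclear receptor for oxysterols (0.64 ± 0.10 and 0.72 ± 0.10), and ACACB, a relative of ACACA, without HGF (0.67 ± 0.13).

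With HGF in 16HBE-ex14, 2 of these 34 genes were called, where 2.11% of all genes were. In 16HBE-WT none was, where 0% of all genes were. ABCA1, the exporter of cholesterol to lipoproteins, was higher with HGF by 2.36 ± 0.43 (adjusted p = 0.0088), was above background on 1 of 4 unstimulated and 4 of 4 stimulated 16HBE-ex14 arrays. It was also called higher there than in 16HBE-WT+HGF, where it was above background on 1 of 4 arrays. FADS3 was lower with HGF by a difference of -0.76 ± 0.16 (adjusted p = 0.0203). The difference of the responses was called for none of the 34, and for 0% of all genes. For ABCA1 the adjusted p of that difference was 0.661.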

How the data were processed

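The spot intensity deposited by the authors is the processed signal of Agilent Feature Extraction 10.7.3.1, per the file headers a linear value after background subtraction and detrending, without scaling from array to array. The series table repeats these values and was not used. The study used limma, and its scaling and filter are not given in the sources used here.

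From these intensities, log2 values minus the 75th percentile of the non-control spots of each array were computed in R 4.3.3, without outlier spots, averaged per probe. The 34599 of 58201 probes that stood well above background on 4 or more of 16 arrays were tested. limma 3.58.1, checked on simulated data, was fitted with 1 mean per group over all arrays, and p values were adjusted by Benjamini-Hochberg over all tested probes in each comparison. The simulated noise was independent between arrays, so that check did not cover arrays that deviate together. Calls needed an adjusted p below 0.05 with a fold change above 1.5, and a gene stands as its brightest probe. All 30 members are named, with values per array for those called. The members and lists were chosen with earlier results of these data known. Precision rests on the number of arrays, and depth has no meaning for intensities. Arrays of one slide deviated together (median correlation of deviations from the group means 0.212 across rows, 0.205 in the same row and -0.197 between slides). Exons of the probes were not analysed here. A gene withheld from this text is not reported here by name. Python 3.11.15, pandas 2.3.3 and matplotlib 3.10.9 were used for promoters and figures. Alternatives covered background correction, scaling, filters, outlier spots, blocks, slides, probe choice, the fold limit and leaving out each array.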

Additional observations from a re-analysis of the deposited data

Results flagged for a closer look

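In 9 of 124 groups of 4 arrays, 1 array of a gene lay far from the other 3 by Dixon's test, which chance alone does in about 1 group of 20. Replicate 2 of 16HBE-WT was low for HMGCS1 (1.61, the others 2.18 to 2.24) and for LSS (3.15, the others 3.56 to 3.61). Replicate 2 of 16HBE-ex14 was high for SQLE (4.22, the others 3.52 to 3.57). Replicate 1 of 16HBE-ex14 was low for FDFT1 (4.38, the others 4.80 to 4.85), SREBF2 (2.28, the others 2.51 to 2.55) and STARD4 (0.43, the others 0.87 to 0.92). Replicate 3 of 16HBE-ex14+HGF was high for ACAT2 (6.11, the others 5.87 to 5.90). ELOVL6 was low on replicate 1 of 16HBE-WT+HGF (-2.11, the others -1.30 to -1.17) and on replicate 3 of 16HBE-ex14 (-1.43, the others -1.15 to -1.10). Without these arrays the calls of HMGCS1, LSS, SQLE and ACAT2 between the genotypes were kept, and FDFT1, SREBF2, STARD4 and ELOVL6 were called neither with nor without them.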

How the results depend on the processing

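No result for the 30 genes changed its direction past a limit, and the number called lower in 16HBE-ex14 stayed between 12 and 15 without HGF and between 12 and 16 with HGF under other background correction, scaling, filters, probe choice, blocks and when any 1 array was left out. With no fold change limit it was 18 and 19. The replicate block (slide and row) left 13 and 14 called, and rows share a number only, so this is no paired test. Leaving out 1 array moved the mean difference between the unstimulated genotypes within -0.61 to -0.47, and 15 genes were called without replicate 2 of 16HBE-ex14. Within the first slide alone, 2 arrays a group, 4 and 3 were called without and with HGF, and within the second slide 7 and 10, with fewer arrays in each fit. Scaling to the array median moved the median of all probes from -0.02 to 0.12 between the unstimulated genotypes and from 0.05 to -0.11 with HGF in 16HBE-ex14. Under it the mean difference of the 30 genes was -0.40 and their median -0.42 between the unstimulated genotypes, and -0.36 and -0.34 with HGF in 16HBE-ex14. Relative to the median of all probes, the median of the 30 genes was -0.54 and -0.23, as in the reported setting. Between the genotypes, this relative median was -0.54 without HGF and -0.56 with HGF as reported. It was -0.35 and -0.33 with normexp, -0.43 and -0.42 with no filter on dim probes, and -0.63 and -0.63 with quantile normalization. With HGF in 16HBE-ex14, 1 gene was called when probes had to be above background on all 16 arrays (HMGCS1), 1 with no fold limit (MVK), and 0 to 2 when 1 array was left out. AACS was the 1 gene called higher in 16HBE-ex14+HGF than in 16HBE-WT+HGF when scaled by the array median or by the spike-ins and with no fold limit, and 0 to 1 was called when 1 array was left out. The cause of these changes was not tested. Differences under the fold limit, and those of transcripts near background such as ABCA1 and ABCG1, are the least certain.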
